A study of Homo sapiens with 15 samples.

Results

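The TGF-beta pathway genes described here are 10 genes that carry or control TGF-beta signalling: the ligands TGFB1, TGFB2 and TGFB3, the receptors TGFBR1, TGFBR2 and TGFBR3, the signal transducer SMAD3, the feedback inhibitors SMAD7 and SKIL, and the induced gene TGFBI. They were chosen by name, as the rows of the expression tables that carry these symbols, with earlier results of these data known. The counts set beside the shares of all genes below are therefore a description. All 10 were found among the 16382 genes listed for MRC5 cells and the 16076 listed for H196 cells (17138 genes in either table). MRC5 is a human lung fibroblast line, H196 a non-neuroendocrine (non-NE) small cell lung cancer (SCLC) line and H69 a neuroendocrine (NE) SCLC line. The 5 groups, of 3 libraries each, were MRC5 in mono-culture (MRC5_Mo), MRC5 beside an H69 partner (MRC5_CoH69), MRC5 beside an H196 partner (MRC5_CoH196), H196 in mono-culture (H196_Mo) and H196 beside an MRC5 partner (H196_Co). Partners shared the medium for a week across a porous transwell insert, with the sequenced cells in the well below, and the labels name no drug or genetic change for any group. SCLC lines and MRC5 were kept in different media, and which medium the co-cultures had is not given in the sources used here. Each partner type was represented by 1 cell line. The labels do not say that the 3 libraries of a group came from separate experiments, so the p-values measure the spread between these libraries, which may be technical.

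TGF-beta ligands are secreted in a latent form, held in the matrix by binding proteins and released by integrins and proteases. Active ligand brings the type II receptor TGFBR2 and the type I receptor TGFBR1 together, and TGFBR1 then phosphorylates SMAD2 and SMAD3, which enter the nucleus with SMAD4. Among the genes they induce are SMAD7 and SKIL, which damp the signal. The SMADs also induce contractile genes and matrix genes, by which lung fibroblasts become contractile and collagen-producing.

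Library totals ran from 18476890 to 19170560 counts for MRC5 and from 16073597 to 17358349 for H196. The 10 fibroblast markers examined were all listed in MRC5, with a summed level of 26954 to 30005 CPM (counts scaled to the library total) in MRC5_Mo, 30879 to 31889 CPM in MRC5_CoH69 and 12892 to 13647 CPM in MRC5_CoH196, against 3.42 to 4.21 CPM in H196, where THY1 was not listed. Of these markers, COL1A1, COL1A2 and COL3A1 fell in MRC5_CoH196 against MRC5_Mo (log2 fold changes -1.57, -0.56 and -2.09), while PDGFRA (0.33), PDGFRB (0.67), LUM (0.30), DCN (0.15) and FAP (0.15) rose (edgeR quasi-likelihood test). In MRC5_CoH69, COL1A1 (0.18), PDGFRB (0.15), LUM (0.42) and FAP (0.38) rose in the same test, and none of the fibroblast markers passed as lower. The 4 non-NE markers REST, YAP1, MYC and AXL summed to 551 to 669 CPM in H196 and to 1130 to 1339 CPM in MRC5, so their sum was higher in the fibroblasts. MYC rose in MRC5_CoH196 (log2 fold change 0.9995). The 6 epithelial markers summed to 126 to 133 CPM in MRC5_Mo, where CDH1 was at 0. Their sum was 151 to 168 CPM in MRC5_CoH69 and 131 to 139 CPM in MRC5_CoH196. In MRC5_CoH69, KRT18 (log2 fold change 0.40) and KRT8 (0.31) rose, while KRT7 and KRT19 did not pass. In MRC5_CoH196, KRT7 (1.43), KRT19 (0.99) and KRT8 (0.83) rose and KRT18 fell (-0.25). The markers of other cells summed to 72.7 to 81.7 CPM in MRC5_Mo, 57.5 to 70.2 CPM in MRC5_CoH69 and 106 to 115 CPM in MRC5_CoH196. CD68 fell in MRC5_CoH69 (-0.27) and rose in MRC5_CoH196 (0.69), where PTPRC and CDH5 were at 0. The part of these markers in the results below was not tested. The NE markers CALCA, CHGA, GRP and INSM1 were not listed in MRC5, and CHGB, SYP, NCAM1 and DLL3 together summed to at most 1.5 CPM in any MRC5 library. A set of 95 genes abundant in H196 and nearly silent in MRC5_Mo reached 0.675%, 0.779% and 0.299% of their H196 level in the 3 MRC5_CoH196 libraries, against 0.118% on average in MRC5_Mo and 0.121% in MRC5_CoH69. None of the 10 pathway genes belonged to that set. Because the libraries were made from bulk RNA, fewer cells of a kind and less RNA per cell cannot be told apart.

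Levels below are given as FPKM (fragments scaled to gene length and mapped total), which may be set side by side between genes. Fold changes and tests come from the counts, scaled by the trimmed mean of M-values (TMM). A gene passed at a Benjamini-Hochberg adjusted p under 0.05 in edgeR's quasi-likelihood test, and it counted as a DEG (differentially expressed gene) where its absolute log2 fold change was also above 0.58. The scale of the values matters here. On log2(FPKM + 1), the median of all genes lay 0.13 lower in MRC5_CoH196 than in MRC5_Mo (log2 difference -0.13), while the TMM-scaled counts put it at -0.00, so a gene that rose shows a smaller rise on FPKM than from counts. Gene coordinates are those of the tables, on GRCh38.p13.

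The 250 bases upstream of the start site were read from RefSeq on GRCh38.p14 for the members. The 4 windows shown are those of the ligand that rose most with H196 (TGFB2), the feedback genes (SMAD7 and SKIL) and the target gene (TGFBI). They lie at chr1:218345086-218345335 (TGFB2, plus strand), chr18:48950966-48951215 (SMAD7, minus strand), chr3:170357465-170357714 (SKIL, plus strand) and chr5:136028738-136028987 (TGFBI, plus strand), and are written from 5′ to 3′ with each match to the CAGA box, CAGAC or its complement GTCTG, in capitals.
TGFB2: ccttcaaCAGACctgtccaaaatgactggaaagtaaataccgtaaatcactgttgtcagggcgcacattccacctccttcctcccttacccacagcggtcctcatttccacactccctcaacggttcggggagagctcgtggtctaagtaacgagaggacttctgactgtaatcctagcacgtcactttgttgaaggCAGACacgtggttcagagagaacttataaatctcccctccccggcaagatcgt
SMAD7: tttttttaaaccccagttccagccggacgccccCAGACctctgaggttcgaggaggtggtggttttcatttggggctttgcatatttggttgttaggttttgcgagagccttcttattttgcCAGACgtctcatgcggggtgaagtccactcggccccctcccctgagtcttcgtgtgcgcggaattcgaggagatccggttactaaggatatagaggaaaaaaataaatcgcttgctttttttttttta
SKIL: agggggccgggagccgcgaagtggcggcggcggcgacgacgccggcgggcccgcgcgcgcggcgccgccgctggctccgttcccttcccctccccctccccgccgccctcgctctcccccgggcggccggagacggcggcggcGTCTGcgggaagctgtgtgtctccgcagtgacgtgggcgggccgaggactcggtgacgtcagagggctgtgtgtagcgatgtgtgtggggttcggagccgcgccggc
TGFBI: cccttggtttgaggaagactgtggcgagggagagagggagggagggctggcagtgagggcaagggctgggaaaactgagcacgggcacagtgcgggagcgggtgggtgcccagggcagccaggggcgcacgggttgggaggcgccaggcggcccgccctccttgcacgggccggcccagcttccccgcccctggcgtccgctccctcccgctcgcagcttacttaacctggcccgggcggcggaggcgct
The CAGA box is a short motif that SMAD3 and SMAD4 can bind. It began 243 and 53 bases before the start site in TGFB2, 217 and 128 bases before it in SMAD7, and 107 bases before it in SKIL. The TGFBI window held no match. Over all 10 genes, the window nearest to the listed gene start held the motif in TGFB2, TGFB3, SMAD7 and SKIL, that is in 4 of 10 (for TGFBR3 the nearest window began 19851 bases from the listed start), while 38.0% of the 35116 RefSeq promoter windows of the same length held it. The palindrome GTCTAGAC, found in 0.182% of those windows, and the AP-1 site TGACTCA or TGAGTCA, found in 4.2%, did not occur in any of the 10 windows. Both strands were searched, and the 3 motifs do not contain one another. A match is a run of letters, not a measured binding site.

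To ask how fibroblasts exposed to non-NE cells differed from fibroblasts alone, MRC5_CoH196 was compared with MRC5_Mo. Of the 10 pathway genes, 8 rose and 0 fell at an adjusted p under 0.05, where 37.2% of the 12819 genes tested rose and 37.1% fell (edgeR quasi-likelihood test). TGFB3 and TGFBR2 did not pass. Lower values at an unadjusted p under 0.05 were found for 1 gene (TGFB3), and DESeq2 called 0 lower. As DEGs, 6 rose (TGFB1, TGFB2, TGFBR1, SMAD7, SKIL and TGFBI), where 17.2% of all genes did, and 0 fell, where 14.7% did. On TMM-scaled counts 9 genes had no overlap between the groups, 8 higher (37.7% of all genes) and 1 lower (TGFB3, 37.9% of all genes). The median log2 fold change of the 10 was 0.92, against -0.00 over all genes. On log2(FPKM + 1) with limma, the balance of all passing genes moved from 4765 higher and 4757 lower to 3299 higher and 6178 lower, and 7 of the 10 then passed as higher and 2 as lower. Read as H196 RNA, the highest level of the H196 genes given above would add at most 1.26% of the FPKM rise for the 6 DEGs. It would add 4.26% for SMAD3 and 19.2% for TGFBR3. Whether the fibroblasts raised those H196 genes themselves was not tested.

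**Figure D1:**
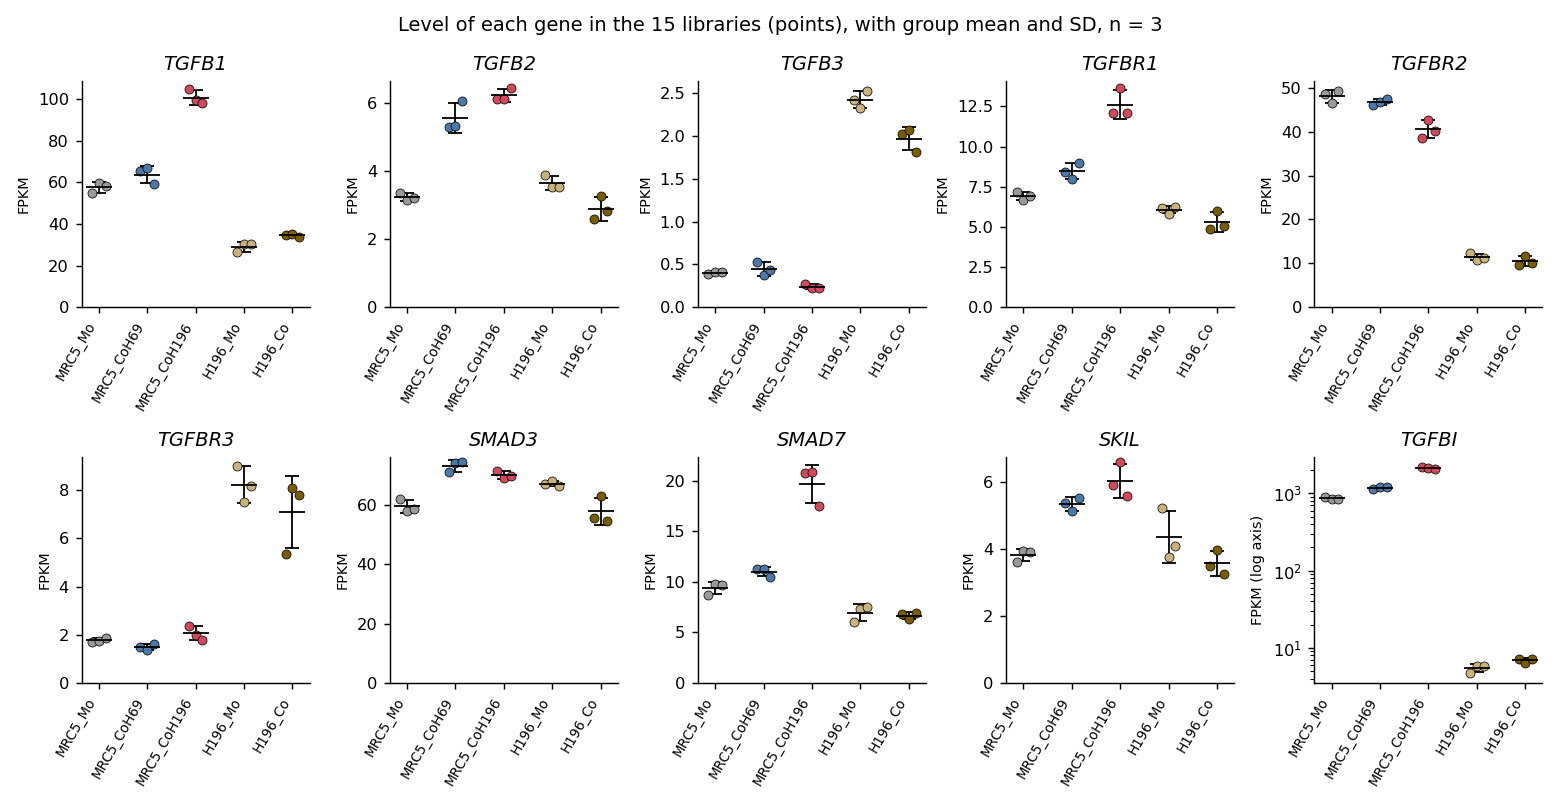
FPKM of each of the 10 genes (y axis, linear apart from TGFBI, which has a log axis) in the 5 groups (x axis), with 1 point for each library and the group mean and SD (n = 3). TGFBI in MRC5_CoH196 sits between 2077 and 2195 FPKM, above all other MRC5 libraries, while TGFB3 and TGFBR3 are highest in the H196 line.

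Among the ligands, TGFB1 (gene 7040, chr19:41330323-41353922), the form most fibroblasts and tumor cells secrete, supplied nearly all of the ligand RNA. It measured 54.9, 59.8 and 58.04 FPKM in MRC5_Mo, 65.3, 66.9 and 59.1 FPKM in MRC5_CoH69, and 104.7, 99.5 and 98.0 FPKM in MRC5_CoH196. The libraries with H196 stood above all others, whereas on FPKM those with H69 reached down to the MRC5_Mo level in 1 library. On TMM-scaled counts the libraries with H69 all lay above MRC5_Mo. TGFB1 rose 2.01-fold with H196 (log2 fold change 1.005, SE 0.05, adjusted p = 2.68e-15, edgeR quasi-likelihood test).

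TGFB2 (gene 7042, chr1:218345336-218445857), a ligand that needs the co-receptor TGFBR3 for high-affinity binding, measured 3.36, 3.14 and 3.20 FPKM in MRC5_Mo, 5.28, 5.33 and 6.06 FPKM in MRC5_CoH69, and 6.12, 6.12 and 6.45 FPKM in MRC5_CoH196. Both co-cultures lay above MRC5_Mo with no overlap, and the H196 libraries began just above the highest H69 library. The rise with H196 was 2.17-fold (log2 fold change 1.12, SE 0.07, adjusted p = 9.01e-14, edgeR quasi-likelihood test).

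TGFB3 (gene 7043, chr14:75958097-75983011), the ligand known from scar-free repair and palate closure, was barely present in the fibroblasts, at 0.39, 0.41 and 0.41 FPKM in MRC5_Mo, 0.53, 0.38 and 0.43 FPKM in MRC5_CoH69, and 0.27, 0.22 and 0.23 FPKM in MRC5_CoH196. These values rest on 13 to 29 counts a library. The 3 libraries with H196 were the lowest of the 9, but the difference from MRC5_Mo did not pass (log2 fold change -0.56, SE 0.26, adjusted p = 0.054, edgeR quasi-likelihood test). It passed on log2(FPKM + 1) with limma (log2 difference -0.18, adjusted p = 0.00889).

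The make-up of the ligand RNA followed from this. TGFB1 held 94.05% ± 0.40 (SD, n = 3) of the summed ligand FPKM in MRC5_Mo, 91.4% ± 1.09 in MRC5_CoH69 and 93.96% ± 0.32 in MRC5_CoH196. The sum itself was 61.2 ± 2.36 FPKM in MRC5_Mo, 69.7 ± 3.69 in MRC5_CoH69 and 107 ± 3.45 in MRC5_CoH196. TGFB2 held the largest share in MRC5_CoH69, at 8.01% ± 1.07, against 5.29% ± 0.39 in MRC5_Mo and 5.82% ± 0.33 in MRC5_CoH196. According to the GENCODE annotation at hand, TGFB1 shares sequence with HNRNPUL1 and TGFB3 with TGFB3-AS1 on the opposite strand, and TGFB2 with TGFB2-OT1 on the same strand. Whether the counting used strand is not given in the sources used here, so reads in those stretches cannot be told apart.

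The receptors moved unequally. TGFBR1 (gene 7046, chr9:99103656-99154192), the kinase that phosphorylates SMAD2 and SMAD3, measured 7.15, 6.66 and 6.92 FPKM in MRC5_Mo, 8.41, 8.0 and 8.98 FPKM in MRC5_CoH69, and 12.1, 13.6 and 12.1 FPKM in MRC5_CoH196. The 3 groups did not overlap and stood in that order. TGFBR1 rose 2.06-fold with H196 (log2 fold change 1.04, SE 0.05, adjusted p = 5.05e-15, edgeR quasi-likelihood test).

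TGFBR2 (gene 7048, chr3:30606472-30694142), the receptor that binds the ligand first, was the most abundant of the 3 receptors in fibroblasts. It measured 48.6, 46.4 and 49.2 FPKM in MRC5_Mo, 46.1, 46.8 and 47.5 FPKM in MRC5_CoH69, and 38.6, 42.7 and 40.2 FPKM in MRC5_CoH196. On FPKM the libraries with H196 lay below the rest, but on TMM-scaled counts the groups overlapped and TGFBR2 did not pass (log2 fold change -0.08, SE 0.04, adjusted p = 0.0847, edgeR quasi-likelihood test). It passed as lower on log2(FPKM + 1) with limma (log2 difference -0.24, adjusted p = 0.000284), where the median of all genes was -0.13. It also passed as lower from counts without the second MRC5_CoH196 library (log2 fold change -0.11, adjusted p = 0.0387, edgeR quasi-likelihood test).

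TGFBR3 (gene 7049, chr1:91680343-91906002), or betaglycan, presents ligand to TGFBR2 and has no kinase of its own. It measured 1.71, 1.74 and 1.86 FPKM in MRC5_Mo, 1.49, 1.38 and 1.63 FPKM in MRC5_CoH69, and 2.37, 2.0 and 1.80 FPKM in MRC5_CoH196. The lowest library with H196 lay within the range of MRC5_Mo on FPKM, although the groups did not overlap on TMM-scaled counts. The rise of 1.298-fold passed (log2 fold change 0.38, SE 0.09, adjusted p = 0.000787, edgeR quasi-likelihood test), but not on log2(FPKM + 1) with limma (log2 difference 0.14, adjusted p = 0.107). Without the first and second MRC5_CoH196 libraries, those with the highest level of the H196 genes, its log2 fold change was 0.26, from 1 library left in that group. Within each library, TGFBR2 RNA exceeded TGFBR1 RNA by a ratio of 6.96 ± 0.15 (SD, n = 3) in MRC5_Mo, 5.54 ± 0.28 in MRC5_CoH69 and 3.22 ± 0.10 in MRC5_CoH196. The 9 ratios fell into 3 separate ranges.

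SMAD3 (gene 4088, chr15:67065602-67195195), the transcription factor at the end of the receptor cascade, measured 61.8, 58.1 and 58.5 FPKM in MRC5_Mo, 70.9, 73.9 and 74.6 FPKM in MRC5_CoH69, and 71.4, 68.9 and 69.8 FPKM in MRC5_CoH196. On FPKM both co-cultures lay above MRC5_Mo and overlapped each other. On TMM-scaled counts the libraries with H196 all lay above those with H69. SMAD3 rose 1.33-fold with H196 (log2 fold change 0.41, SE 0.04, adjusted p = 3.83e-09, edgeR quasi-likelihood test). An annotated antisense gene, AC087482.1, overlaps SMAD3.

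The feedback genes rose more than SMAD3. SMAD7 (gene 4092, chr18:48919853-48950965), which blocks TGFBR1 and marks it for degradation, measured 8.69, 9.81 and 9.72 FPKM in MRC5_Mo, 11.3, 11.3 and 10.5 FPKM in MRC5_CoH69, and 20.8, 20.8 and 17.5 FPKM in MRC5_CoH196. The third library with H196 was lower than its companions but well above the other groups. The rise was 2.49-fold (log2 fold change 1.32, SE 0.06, adjusted p = 2.44e-15, edgeR quasi-likelihood test). The ratio of SMAD3 to SMAD7 RNA was 6.35 ± 0.67 (SD, n = 3) in MRC5_Mo, 6.66 ± 0.42 in MRC5_CoH69 and 3.58 ± 0.36 in MRC5_CoH196.

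SKIL (gene 6498, chr3:170357678-170397227), also called SnoN, is a nuclear corepressor that holds SMAD complexes inactive. It measured 3.60, 3.94 and 3.92 FPKM in MRC5_Mo, 5.39, 5.13 and 5.54 FPKM in MRC5_CoH69, and 5.92, 6.59 and 5.59 FPKM in MRC5_CoH196. The 2 co-cultures lay above MRC5_Mo and next to each other. SKIL rose 1.78-fold with H196 (log2 fold change 0.84, SE 0.06, adjusted p = 7.61e-12, edgeR quasi-likelihood test).

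TGFBI (gene 7045, chr5:136028988-136067111) encodes a matrix protein named for its induction by TGF-beta and showed the largest rise of the 10. It measured 895, 859 and 834 FPKM in MRC5_Mo, 1140, 1207 and 1205 FPKM in MRC5_CoH69, and 2195, 2141 and 2077 FPKM in MRC5_CoH196. The 3 groups stood apart without overlap. With H196 it rose 2.79-fold (log2 fold change 1.48, SE 0.04, adjusted p = 3.4e-20, edgeR quasi-likelihood test), and by mean FPKM it moved from rank 103 to rank 30 of the 16382 genes listed. A larger log2 fold change in either direction was found for 4.80% of the genes tested.

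To ask whether an NE partner did the same, MRC5_CoH69 was compared with MRC5_Mo, the same 3 control libraries as above. Here 6 of the 10 genes rose (TGFB2, TGFBR1, SMAD3, SMAD7, SKIL and TGFBI) and 0 fell, where 3.78% of the 12819 genes tested rose and 2.93% fell (edgeR quasi-likelihood test). No member was lower at an unadjusted p under 0.05 (0 genes), and DESeq2 and limma also called 0 lower. The median log2 fold change of the 10 was 0.30, against -0.00 over all genes. TGFB2 was a DEG, at 1.74-fold (log2 fold change 0.80, SE 0.07, adjusted p = 1.28e-08, edgeR quasi-likelihood test), where 0.421% of all genes were DEGs that rose. A larger log2 fold change in either direction was found for 0.882% of genes.

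**Figure D2:**
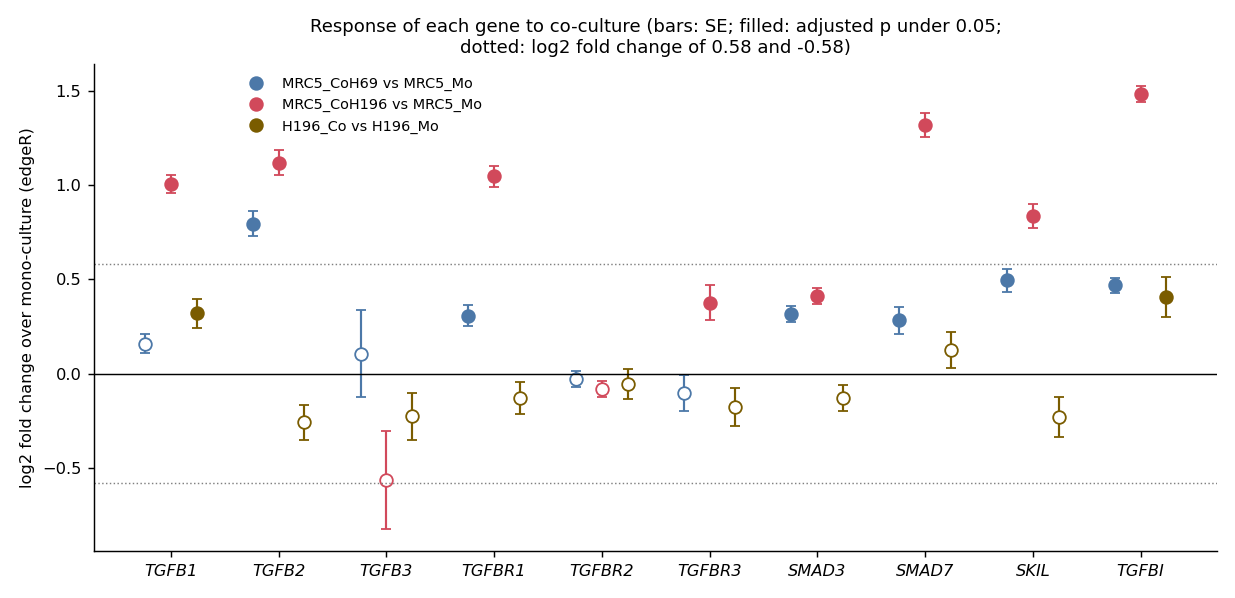
The 10 genes (x axis) with their log2 fold change over mono-culture (y axis, edgeR) in MRC5_CoH69, MRC5_CoH196 and H196_Co, with SE bars, filled points for an adjusted p under 0.05 and dotted lines at 0.58 and -0.58. With H196, 6 genes lie above 0.58 in MRC5, with H69 only TGFB2 does, and in H196_Co none does.

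The other rises with H69 were smaller. SKIL rose 1.41-fold (log2 fold change 0.49, SE 0.06, adjusted p = 9.15e-06) and TGFBI 1.38-fold (log2 fold change 0.47, SE 0.04, adjusted p = 2.36e-08) in edgeR's quasi-likelihood test. SMAD3 rose 1.24-fold (log2 fold change 0.31, SE 0.04, adjusted p = 2.11e-05) and TGFBR1 1.24-fold (log2 fold change 0.31, SE 0.06, adjusted p = 0.000776) in the same test. SMAD7 rose 1.22-fold (log2 fold change 0.28, SE 0.07, adjusted p = 0.0134, edgeR quasi-likelihood test), a call lost on log2(FPKM + 1) with limma (adjusted p = 0.143) and in edgeR without the first MRC5_Mo library (adjusted p = 0.0655) or the second MRC5_CoH69 library (adjusted p = 0.0816).

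TGFB1 narrowly missed the threshold with H69 (log2 fold change 0.16, SE 0.05, adjusted p = 0.0556, edgeR quasi-likelihood test). It passed without the third MRC5_CoH69 library, the lowest of that group (log2 fold change 0.21, adjusted p = 0.02, edgeR quasi-likelihood test). It also passed in edgeR with no filter on low counts (adjusted p = 0.0465), with at least 10 counts in every library (0.0458) and with the 6 libraries compared alone (0.0377). TGFB3 (log2 fold change 0.11, SE 0.23), TGFBR2 (-0.03, SE 0.04) and TGFBR3 (-0.10, SE 0.10) did not pass either. In TMM-scaled counts, 7 of the 10 had MRC5_CoH69 libraries all above the MRC5_Mo libraries, where 13.6% of all genes did.

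The 2 co-cultures were then compared directly. In MRC5_CoH196, 8 of the 10 genes were higher than in MRC5_CoH69 and 1 was lower, where 35.7% of the genes tested were higher and 36.6% lower (edgeR quasi-likelihood test). SMAD7 was 2.05-fold higher (log2 fold change 1.04, SE 0.06, adjusted p = 2.14e-13), TGFBI 2.02-fold (1.01, SE 0.04, adjusted p = 8.33e-17), TGFB1 1.80-fold (0.85, SE 0.05, adjusted p = 9.14e-14) and TGFBR1 1.67-fold (0.74, SE 0.05, adjusted p = 3.81e-12) in that test. These 4 were DEGs, where 15.2% of all genes were DEGs and higher, and TGFB3 was a DEG and lower, where 13.1% were. On log2(FPKM + 1) with limma, the balance of all passing genes moved from 4574 higher and 4695 lower to 3104 higher and 6214 lower.

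TGFB2, SKIL and SMAD3 differed less between the partners. TGFB2 was 1.25-fold higher (log2 fold change 0.32, SE 0.06, adjusted p = 4.45e-05) and SKIL 1.27-fold (0.34, SE 0.06, adjusted p = 1.44e-05) in edgeR's quasi-likelihood test. Neither passed on log2(FPKM + 1) with limma (adjusted p = 0.0535 and 0.064). SMAD3 passed by a narrow margin (log2 fold change 0.10, SE 0.04, adjusted p = 0.0427, edgeR quasi-likelihood test), lost the call in edgeR without any of 4 libraries in turn (the first or second with H69, the first or the third with H196) or with a replicate block (adjusted p = 0.0586; without 1 library, 0.0605 to 0.158), and turned to -0.06 on log2(FPKM + 1). TGFBR3 was 1.39-fold higher (log2 fold change 0.48, SE 0.09, adjusted p = 6.96e-05, edgeR quasi-likelihood test). TGFB3 was the lower gene (log2 fold change -0.67, SE 0.26, adjusted p = 0.0224, edgeR quasi-likelihood test), a call lost with DESeq2 (adjusted p = 0.102) and in edgeR without the first MRC5_CoH69 library (adjusted p = 0.0939) or without the second (0.0708) or the third (0.0567) MRC5_CoH196 library.

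In the tumor partner, the question was whether H196 cells changed the same pathway when grown with MRC5. In H196_Co against H196_Mo, 2 of the 10 genes rose (TGFB1 and TGFBI) and 0 fell, where 12% of the 12806 genes tested rose and 7.78% fell (edgeR quasi-likelihood test). At an unadjusted p under 0.05, 2 were lower (TGFB2 and SKIL), while DESeq2 called 0 lower and limma on log2(FPKM + 1) called 1 lower (SMAD3, log2 difference -0.22, adjusted p = 0.0383). No member was a DEG (0 higher and 0 lower, also in DESeq2 and limma), where 3.26% of all genes were DEGs that rose and 0.601% DEGs that fell. The TMM-scaled counts of the groups did not overlap for TGFB1 and TGFBI, which were higher (20.2% of all genes), and for TGFB2 and TGFB3, which were lower (17% of all genes). The median log2 fold change of the 10 was -0.13, against -0.00 over all genes. On log2(FPKM + 1) with limma, the balance of all passing genes moved from 1542 higher and 996 lower to 930 higher and 1627 lower.

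TGFB1 measured 26.3, 30.3 and 30.4 FPKM in H196_Mo and 34.9, 35.0 and 33.5 FPKM in H196_Co. The co-cultured libraries were close to each other and above all 3 mono-cultured ones. The rise was 1.25-fold (log2 fold change 0.32, SE 0.07, adjusted p = 0.00521, edgeR quasi-likelihood test).

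TGFBI in H196 was a low-level gene, at 4.78, 5.88 and 5.80 FPKM in H196_Mo and 7.25, 6.38 and 7.09 FPKM in H196_Co. The groups did not overlap. It rose 1.33-fold (log2 fold change 0.41, SE 0.11, adjusted p = 0.0116, edgeR quasi-likelihood test), a call lost in edgeR without the first H196_Mo library (adjusted p = 0.0595) or the third H196_Co library (adjusted p = 0.0533). The fibroblast markers summed to 3.48 to 4.21 CPM in H196_Mo and 3.42 to 4.10 CPM in H196_Co. The sum is no measure of MRC5 RNA, since mono-cultured H196 already gave 23, 30 and 26 counts of S100A4 and 17, 29 and 26 of COL1A1. COL1A2 had 0, 0 and 0 counts in H196_Mo and 1, 0 and 1 in H196_Co, and COL3A1 had 0, 1 and 0 in each. The part of MRC5 RNA in the rise of TGFBI was not tested.

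TGFB2 measured 3.88, 3.54 and 3.53 FPKM in H196_Mo and 2.58, 3.27 and 2.83 FPKM in H196_Co. The co-cultured libraries were all lower, but the difference did not pass (log2 fold change -0.26, SE 0.09, adjusted p = 0.0591, edgeR quasi-likelihood test). Without the second H196_Co library, TGFB2 passed as lower (adjusted p = 0.018), as did TGFBR3 (adjusted p = 0.047) and SKIL (adjusted p = 0.0422) in edgeR's quasi-likelihood test, and with all 15 libraries in 1 fit TGFB2 passed too (adjusted p = 0.0332, edgeR quasi-likelihood test). The remaining genes had log2 fold changes from -0.22 (TGFB3) to 0.13 (SMAD7) and did not pass in edgeR.

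Whether MRC5 and H196 responded differently to each other was tested for each gene as the response of MRC5_CoH196 minus that of H196_Co, in 1 fit of all 15 libraries. The sequenced cells were in the well and their partner in the insert, so these groups came from separate co-cultures with the lines in reversed places. In 8 of the 10 genes, 6 of them past a log2 difference of 0.58 (12.1% of all genes), the fibroblast response was the higher one, where that held for 24.1% of the 13585 genes tested and the reverse for 27.1% (edgeR quasi-likelihood test). The difference was largest for TGFB2 (log2 1.35, SE 0.11, adjusted p = 1.44e-10), followed by SMAD7 (1.17, SE 0.12, adjusted p = 3.01e-09), TGFBR1 (1.15, SE 0.10, adjusted p = 1.56e-10) and TGFBI (1.05, SE 0.11, adjusted p = 8.66e-09) in that test. It was 1.04 for SKIL (SE 0.13, adjusted p = 1.11e-07) and 0.66 for TGFB1 (SE 0.09, adjusted p = 3.62e-07, edgeR quasi-likelihood test). SMAD3 (0.51, SE 0.08, adjusted p = 3.28e-06) and TGFBR3 (0.52, SE 0.15, adjusted p = 0.00462) passed with smaller differences in the same test, TGFBR3 not on log2(FPKM + 1) with limma (adjusted p = 0.0766). For TGFB3 (-0.36, SE 0.27) and TGFBR2 (-0.06, SE 0.09) the difference did not pass.

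**Figure D3:**
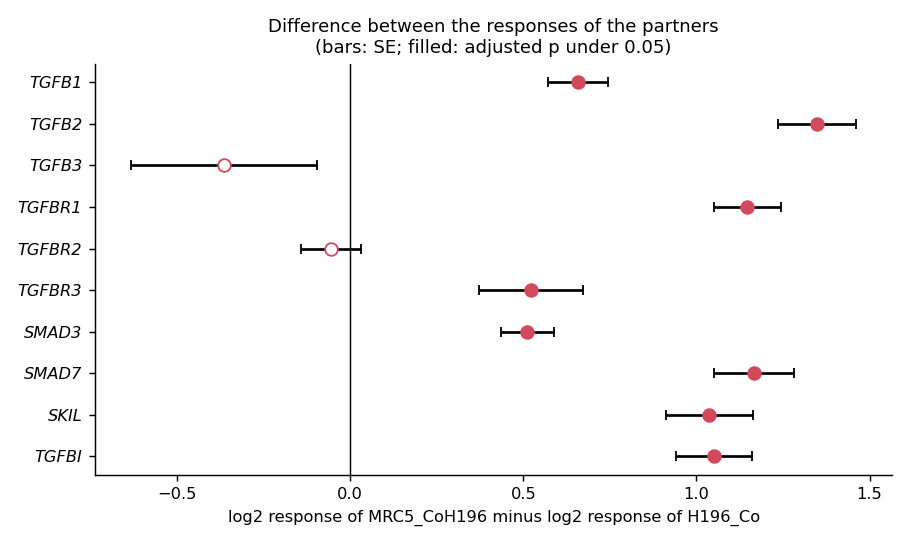
log2 response of MRC5_CoH196 minus log2 response of H196_Co (x axis) for each of the 10 genes (y axis), with SE bars and filled points for an adjusted p under 0.05 in edgeR. The 8 filled points run from 0.51 (SMAD3) to 1.35 (TGFB2), and TGFB3 and TGFBR2 are open.

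The lines differed in their resting levels. Between MRC5_Mo and H196_Mo, 8 of the 10 genes were higher in MRC5 and 2 lower, where 42.6% of the 13585 genes tested were higher and 44% lower (edgeR quasi-likelihood test on the 15 libraries). Of these, 5 higher and 2 lower genes were DEGs, where 30.2% and 31.5% of all genes were. On log2(FPKM + 1) with limma the balance of all passing genes moved from 5781 higher and 5979 lower to 3985 higher and 8005 lower, with a median of all genes of -0.34. TGFBI was 213-fold higher in MRC5 (log2 fold change 7.73, SE 0.08, adjusted p = 1.55e-32), TGFBR2 5.68-fold (2.51, SE 0.06, adjusted p = 1.98e-24) and TGFB1 2.66-fold (1.41, SE 0.06, adjusted p = 2.54e-18) in edgeR's quasi-likelihood test. TGFB3 was lower in MRC5 (log2 fold change -2.14, SE 0.16, adjusted p = 4.42e-13), and so was TGFBR3 (-1.84, SE 0.10, adjusted p = 1.01e-15, edgeR quasi-likelihood test).

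TGFB3 measured 2.42, 2.33 and 2.53 FPKM in H196_Mo, and TGFBR3 9.01, 7.51 and 8.19 FPKM. Both exceeded every MRC5 library. TGFBR2 measured 12.3, 10.7 and 11.3 FPKM in H196_Mo, so that the ratio of TGFBR2 to TGFBR1 was 1.88 ± 0.10 (SD, n = 3) there and 1.98 ± 0.02 in H196_Co, below all MRC5 groups. For TGFB2, SMAD3 and SKIL the order of the lines depended on the scale, since all 3 passed as higher in MRC5 from counts (log2 fold changes 0.27, 0.34 and 0.25) and were lower on log2(FPKM + 1) (log2 differences -0.13, -0.17 and -0.15), where SMAD3 alone passed (adjusted p = 0.00427) and the median of all genes was -0.34. The call for SKIL was lost in edgeR without the second (adjusted p = 0.115) or the third (adjusted p = 0.055) H196_Mo library.

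By mean FPKM, TGFB1 stood in the order MRC5_CoH196, MRC5_CoH69, MRC5_Mo, H196_Co, H196_Mo, in which MRC5_CoH69 against MRC5_Mo did not pass. TGFBR1, SMAD7 and TGFBI had MRC5_CoH196, MRC5_CoH69 and MRC5_Mo as their first 3 groups, each step past the test. For TGFBR2, all 3 MRC5 groups came before both H196 groups, and MRC5_Mo against H196_Mo passed. No pair of MRC5 groups passed for TGFBR2 on counts with all libraries kept. TGFB3 and TGFBR3 had H196_Mo first and H196_Co next, a pair that did not pass. TGFB2 and SKIL stood in the order MRC5_CoH196, MRC5_CoH69, H196_Mo, MRC5_Mo, H196_Co, and SMAD3 in the order MRC5_CoH69, MRC5_CoH196, H196_Mo, MRC5_Mo, H196_Co.

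The genes whose 3 log2 fold changes (MRC5_CoH196, MRC5_CoH69 and H196_Co, each against its mono-culture) lay nearest to a member were found among 8338 genes with at least 10 CPM in both tables, for the 3 members with the largest fold changes. Nearest to TGFBI were SMAD9, INSR and IER3, at Euclidean distances of 0.176, 0.185 and 0.203. RAI14, PNRC1 and SCAPER lay nearest to SMAD7, at 0.0682, 0.0809 and 0.135. For TGFB2 the nearest were BIRC3, CNNM2 and PHLDB2, at 0.293, 0.407 and 0.462, so no gene matched its pattern as closely. The MRC5 comparisons share their controls, and likeness over 3 values is a description only.

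Other genes of the pathway were counted in 5 lists, in which LTBP2 and PMEPA1 each stand in more than 1. Of 14 genes for ligand latency and activation, 12 were tested in MRC5, and 9 rose and 3 fell with H196 (37.2% and 37.1% of all genes; 6 and 3 in limma on log2(FPKM + 1)), with a median log2 fold change of 0.33. The integrin subunits that release latent ligand led the rises, ITGB8 at 1.14 (SE 0.12) and ITGB5 at 1.11 (SE 0.04), and FBN1, the microfibril protein that holds latent complexes in the matrix, fell by 0.61 on the log2 scale (SE 0.04). With H69, 4 of the 12 rose, where 3.78% of all genes did, and 0 fell (also 0 at an unadjusted p under 0.05, in DESeq2 and in limma), among them ITGB5 at 0.30 (SE 0.04). In H196_Co, 3 of 12 tested rose, where 12% of all genes did (3 in DESeq2 and 1 in limma on log2(FPKM + 1)), namely THBS1, an activator of latent TGF-beta, at 0.53 (SE 0.11), and the proteases BMP1 at 0.28 (SE 0.08) and FURIN at 0.27 (SE 0.08).

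Of 10 receptor accessory and decoy genes tested in MRC5, 6 rose and 3 fell with H196 (median log2 fold change 0.24), where 37.2% of all genes rose and 37.1% fell. On log2(FPKM + 1) with limma the balance turned, with 3 higher and 4 lower. With H69, 3 rose and 1 fell, where 3.78% and 2.93% of all genes did. The small matrix proteoglycans that bind TGF-beta were among the rises with H196, FMOD at 1.26 (SE 0.08) and BGN at 0.80 (SE 0.05), while the co-receptor NRP1 fell by 0.81 (SE 0.04). In H196 cells 6 of the 12 were tested and 0 passed in edgeR, with 0 also at an unadjusted p under 0.05, in DESeq2 and in limma.

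Of 16 SMAD transducers, brakes and ubiquitin ligases tested, 13 rose and 1 fell in MRC5 with H196 (median log2 fold change 0.35), where 37.2% and 37.1% of all genes did, and limma on log2(FPKM + 1) called 9 higher and 1 lower. In H196_Co 1 of the 16 rose and 1 fell, where 12% and 7.78% of all genes did. With H69, 0 of the 16 passed in edgeR, DESeq2 or limma, and 4 were higher and 0 lower at an unadjusted p under 0.05 in edgeR. The rises were led by the corepressor TGIF1 at 0.94 (SE 0.06), the ubiquitin ligase NEDD4L at 0.80 (SE 0.07) and SMURF2, the ligase that SMAD7 brings to TGFBR1, at 0.80 (SE 0.05). SMURF2 measured 52.8, 55.3 and 56.6 FPKM in MRC5_Mo and 80.1, 84.8 and 89.2 FPKM in MRC5_CoH196. In H196_Co, NEDD4L rose by 0.23 (SE 0.08) in edgeR, a call that neither DESeq2 nor limma made, and PPM1A, a phosphatase of SMAD2 and SMAD3, fell by 0.27 (SE 0.08), while it had risen by 0.70 (SE 0.05) in MRC5 with H196.

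The activin arm shares SMAD2 and SMAD3. Its list holds ligands, receptors and binding proteins, so its counts give no direction of signalling. Of 11 genes tested, 8 rose and 2 fell in MRC5 with H196 (median log2 fold change 0.54), where 37.2% and 37.1% of all genes did. The counts were 1 and 1 with H69, where 3.78% and 2.93% of all genes rose and fell, and 1 and 1 of 8 tested in H196_Co, where 12% and 7.78% did. Of the genes at 5 CPM or more, INHBA, the subunit of activin A, rose most, by 1.04 on the log2 scale (SE 0.05). FSTL3, which traps activin, rose by 0.94 (SE 0.07) in MRC5_CoH196 and 0.50 (SE 0.11) in H196_Co. FST, the follistatin gene, named here after its values were seen, fell by 0.33 (SE 0.05) in MRC5_CoH196. Its mean was 145 FPKM in MRC5_Mo, 97.6 FPKM in MRC5_CoH69, where it was the gene that fell, and 102 FPKM in MRC5_CoH196. The ligand GDF11 fell by 0.55 (SE 0.06) in MRC5_CoH196. The fall of GDF11 by 0.28 (SE 0.09) in H196_Co was called by edgeR but by neither DESeq2 nor limma. INHBB, the subunit of activin B, was too low for the naming rule and is given because its values stood out once seen, with 2, 5 and 3 counts in MRC5_Mo, 5, 3 and 7 in MRC5_CoH69 and 65, 79 and 74 in MRC5_CoH196 (adjusted p = 6.37e-13 against MRC5_Mo, edgeR quasi-likelihood test).

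Of 30 known TGF-beta target genes, all tested in MRC5, 20 rose and 8 fell with H196 (median log2 fold change 0.36), where 37.2% and 37.1% of all genes did, and limma on log2(FPKM + 1) called 14 higher and 8 lower. With H69, 14 rose and 0 fell, where 3.78% and 2.93% of all genes did (median 0.18, with 0 lower also at an unadjusted p under 0.05, in DESeq2 and in limma). The largest changes with H196 were rises of the transcriptional repressor BHLHE40 by 3.11 (SE 0.07) and of LOX, which cross-links collagen, by 2.72 (SE 0.05), and a fall of the collagen gene COL3A1 by 2.09 (SE 0.05). COL3A1 measured 283, 255 and 242 FPKM in MRC5_Mo, 279, 265 and 301 FPKM in MRC5_CoH69, and 53.9, 57.2 and 50.9 FPKM in MRC5_CoH196. The 8 genes that fell with H196 were ACTA2, CDKN2B, CNN1, COL1A1, COL1A2, COL3A1, POSTN and VCAN. Of these, ACTA2, CNN1 and COL1A1 were among the 14 that rose with H69, and the rest did not pass there. With H69, LOX rose by 0.47 (SE 0.04). ELN, the elastin gene, named here after its values were seen, had the largest rise of the list with H69 (log2 fold change 0.999, SE 0.10, adjusted p = 2.44e-07, edgeR quasi-likelihood test). COL3A1 is also 1 of the fibroblast markers given above, and what part the change of those markers had in the pathway genes was not tested.

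**Figure D4:**
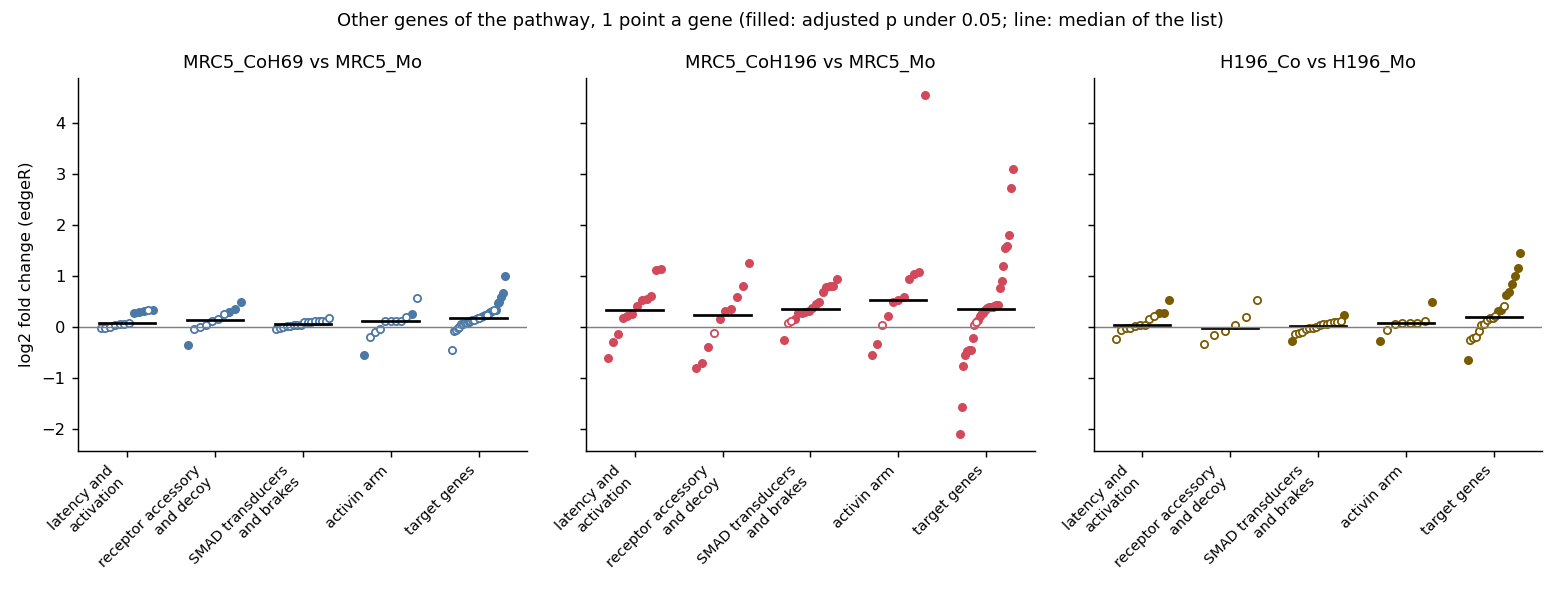
log2 fold change (y axis, edgeR) of the other pathway genes in 5 lists (x axis) for MRC5_CoH69, MRC5_CoH196 and H196_Co against their mono-cultures, with 1 point for each gene, filled at an adjusted p under 0.05, and a line at the median of the list. The medians with H196 in MRC5 lie between 0.24 and 0.54, the target genes spread from -2.09 to 3.11, and the highest point of the activin arm is INHBB, a gene of few counts.

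In H196_Co, 8 of 20 target genes tested rose and 1 fell, where 12% and 7.78% of all genes did. The gene that fell was CDKN2B, a DEG that had also fallen in MRC5 with H196. It measured 28.0, 28.8 and 28.1 FPKM in H196_Mo and 16.2, 17.6 and 17.3 FPKM in H196_Co. BHLHE40 rose by 1.01 (SE 0.09) and CCN2, a matricellular growth factor, by 0.85 (SE 0.07), and both had also risen in MRC5 with H196. SNAI1, a repressor of epithelial genes that lies under the level limit of the naming rule and was picked after its values were seen, measured 0.88, 1.01 and 0.93 FPKM in H196_Mo and 2.37, 2.34 and 2.59 FPKM in H196_Co (log2 fold change 1.44, SE 0.19, adjusted p = 2.4e-05, edgeR quasi-likelihood test). The response of BHLHE40 was larger in the fibroblasts by 2.08 (SE 0.12, adjusted p = 1.43e-13) and that of CCN2 by 0.32 (SE 0.08, adjusted p = 0.000699) in edgeR's quasi-likelihood test of the difference.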

How the data were processed

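RNA-seq was made from MRC5 and H196 cell lines in 5 groups of 3 libraries. The authors enriched mRNA with oligo(dT) beads, sequenced it on a BGIseq-500, filtered reads with SOAPnuke and mapped the rest both to the genome (HISAT, GRCh38.p13) and to gene sequences (Bowtie2). The submitters' processing notes list HISAT2 2.1.0, Bowtie2 2.3.4.3 and RSEM 1.3.1. The deposited expected counts per gene were not normalized, and 93.7% (MRC5) and 92.1% (H196) of them were whole numbers. The deposited FPKM values were scaled by the authors by gene length and mapped total. Columns of the authors' comparisons, headed DESeq2, hold fold changes and p-values and were not used, nor were 18 (MRC5) and 12 (H196) columns of TPM and normalized counts.

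Expected counts were rounded and fitted in R 4.3.3 with edgeR 4.0.16 (TMM, filterByExpr, quasi-likelihood, two-sided), with 9 MRC5 libraries, 6 H196 libraries or all 15 together for the 15320 genes in both tables. Joint TMM factors ran from 0.814 to 1.26. The SE is the log2 fold change over the square root of F. Limma 3.58.1 on log2(FPKM + 1) or log2(FPKM + 0.1), DESeq2 1.42.0, other size factors and filters, stricter limits, a replicate block, other sets of libraries and each library left out in turn were alternatives. Fits were tested on simulated data. The H196 marker genes were those whose lowest H196 library held 20 CPM or more and whose MRC5_Mo level stayed under 0.5 CPM. In each list, up to 3 genes with the largest absolute log2 fold change past the test and a mean of at least 5 CPM were named, in MRC5_CoH196 and in H196_Co, and some genes of the lists are not reported here. The members, lists and tests were chosen with earlier results of these data known. Libraries of a group differed by more than sampling noise in every pair (chi-square per gene from 1.88 to 10.8). Promoter windows came from a RefSeq table on GRCh38.p14, in which all 10 genes were found.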

Additional observations from a re-analysis of the deposited data

Results flagged for a closer look

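The responses of MRC5 and H196 to each other, taken from separate co-cultures, differed for 8 of the 10 genes. Each passed edgeR's quasi-likelihood test of the difference in 1 fit of all 15 libraries. The log2 response of MRC5_CoH196 exceeded that of H196_Co by 0.66 for TGFB1, 1.35 for TGFB2, 1.15 for TGFBR1, 0.52 for TGFBR3, 0.51 for SMAD3, 1.17 for SMAD7, 1.04 for SKIL and 1.05 for TGFBI. Over all genes tested the median of this difference was -0.03.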

How the results depend on the processing

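With the replicate number as a block, the count of genes that rose with H196 in MRC5 stayed at 8, that with H69 at 6 and that in H196_Co at 2, and the block ended no call but that of SMAD3 between the co-cultures (adjusted p = 0.0586, edgeR), where 7 in place of 8 were higher. The labels do not tie the numbers to shared batches, and the correlations of same-numbered libraries' deviations ran from -0.18 to 0.08, with no library nearest to its own number.

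For MRC5_CoH196 against MRC5_Mo, 2 genes were lower (TGFB3 and TGFBR2) on either FPKM scale, and 0 to 1 when a library was left out. With its first and second libraries left out together, an alternative chosen after seeing the data in which the lone library is assumed to vary like the others, 7 genes rose. The DEG of MRC5_CoH69 was lost (0) at a log2 limit of 1. For MRC5_CoH196 against MRC5_CoH69, 5 genes were higher and 2 lower on either FPKM scale, 0 were lower with DESeq2 or at an adjusted p under 0.01, and 0 to 1 with a library left out. The DEGs there were 2 higher at a limit of 1, and 0 lower with DESeq2, on log2(FPKM + 1), at 0.01 or at a limit of 1, and 0 to 1 with a library left out. SMAD3 reversed to -0.061 and -0.062 on the FPKM scales. For H196_Co, 1 gene rose at 0.01 and 1 to 2 with a library left out, while 1 fell on either FPKM scale (SMAD3) or with all 15 libraries in 1 fit (TGFB2), and 0 to 3 with a library left out. Between MRC5_Mo and H196_Mo, 5 genes were higher, and 3 DEGs, on either FPKM scale, and TGFB2 (-0.13 and -0.17), SMAD3 (-0.17 and -0.17) and SKIL (-0.15 and -0.17) reversed. Stricter H196 marker limits (28 genes) gave 0.288% in MRC5_CoH196 and 0.018% in MRC5_CoH69. TGFB3 in MRC5 rests on 13 to 29 counts a library. The cause of these changes was not tested.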
